A study of Mus musculus with 10 samples.

Results

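MYC is a transcription factor that drives cell growth, and many of the genes it is known to activate build ribosomes in the nucleolus. Described here are the transcripts of MYC and of 30 genes for nucleolar, ribosome assembly and nucleotide supply proteins in human prostate tumours grown in mice, 31 genes of 58735 in the deposited human count table. The genes were taken by symbol, each symbol matched a single entry, and all 31 were abundant enough to be tested together with 16913 genes in all. IL-15 tumours (n = 5) came from mice that carried subcutaneous tumours of LNCaP, a human prostate cancer cell line, and received control sipuleucel-T together with 1 µg of recombinant human IL-15 under the skin. Control tumours (n = 5) came from such mice given control sipuleucel-T with the vehicle, PBS, in place of the cytokine. Both groups received 4 weekly injections of 5000000 sipuleucel-T cells in 100 µl into the abdomen, and tumours were collected on day 7 after the last one. Sipuleucel-T is a product of human blood cells primed against a prostate antigen, and IL-15 is a growth factor of T and NK cells. The host strain in both groups was NOD.Cg-Prkdcscid Il2rgtm1Wjl/SzJ, which makes no functional lymphocytes of its own, so the human lymphocytes in these tumours were the injected ones. The series' design text also speaks of cells treated with IL-15, so treatment of the cells and injection of the cytokine cannot be told apart. LNCaP is a single line, the age of the mice and the number of cell donors are not stated, and p-values measure only the spread between these tumours.

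In the nucleolus RNA polymerase I transcribes a long precursor that contains most of the ribosomal RNA. Small nucleolar ribonucleoproteins (snoRNPs) modify it, the small subunit processome cuts and folds its first part, and another set of factors assembles the large subunit on the rest. Prostate cancer cells often carry extra MYC activity, and enlarged nucleoli are a textbook feature of the disease. No sequence of these human genes was at hand.

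Libraries held 13560224 to 19324056 counts, and a floor of 3 counts stood for 0.155 to 0.221 CPM (reads per 1000000 counted in a library, scaled between libraries by the trimmed mean of M values, TMM). That floor covers counting error only. The tumours carried their label's markers, since 10 LNCaP markers summed to 9181 to 14520 CPM in IL-15 tumours and 8174 to 11930 CPM in control tumours. Human leukocytes were scarce. The 15 T cell markers summed to 46.6, 5.69, 28.6, 26.7 and 7.87 CPM in IL-15 tumours 1 to 5, against 5.89, 6.64, 20.3, 4.25 and 5.93 CPM in control tumours 1 to 5. The 12 NK and cytotoxic markers summed to 3.93 to 39.6 CPM in IL-15 tumours and 1.40 to 16.2 CPM in control tumours, the 13 myeloid markers to 4.26 to 6.61 and 3.52 to 7.87 CPM, and the 8 B cell markers to 0.588 to 1.075 and 0.384 to 2.00 CPM, with MS4A1 (CD20) at 0 counts in all 10 libraries. In bulk tumour RNA, fewer cells of a type and less RNA per cell cannot be told apart. IL-15 tumour 3 was the lowest library for most of the genes described here and had the lowest summed CPM of 80 ribosomal protein genes (44980, against 54550 to 93700 in the others). Its TMM factor (1.10) and its score on the first principal component of 500 genes (-27.6) were close to those of IL-15 tumour 1 (1.07 and -26.1). Fold changes of the 31 genes, and of pathway genes named below, that moved by over 1.5 times or changed sign without IL-15 tumour 3 are also given in that form.

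No gene of the family passed the test between IL-15 and control tumours. Most members had a slightly lower mean in IL-15 tumours: 25 of the 31 log2 fold changes were below 0 and 6 above, where 51.0% of all tested genes were below 0. Their median was -0.15, beside -0.006 for all tested genes. With edgeR's quasi-likelihood test adjusted over all genes (Benjamini-Hochberg), the smallest p among members was 0.758, and 0 of 16913 genes in the table passed 0.05 (0%), with 1092 at an unadjusted p under 0.05. The limma voom test also called 0, with 1054 before adjustment. DESeq2 called 15 of 21474 genes (0.0699%), none of them a member, and its smallest adjusted p among members was 0.671. Before adjustment 2 members, NOP14 and UTP20, had p under 0.05 with a lower mean, where 3.43% of all genes did, and 0 had a higher one, where 3.03% did. In 0 members did the 2 groups of 5 tumours fail to overlap, beside 0.313% of all genes wholly lower and 0.349% wholly higher in IL-15 tumours.

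The size of the median depended on single tumours and on the scaling. Without IL-15 tumour 3 the median log2 fold change was -0.06, 21 members were below 0, and 0 had an unadjusted p under 0.05. It was -0.08 without control tumour 2 and -0.09 without control tumour 5. Scaled by library size alone, 19 members were below 0 and the median was -0.07.

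**Figure D1:**
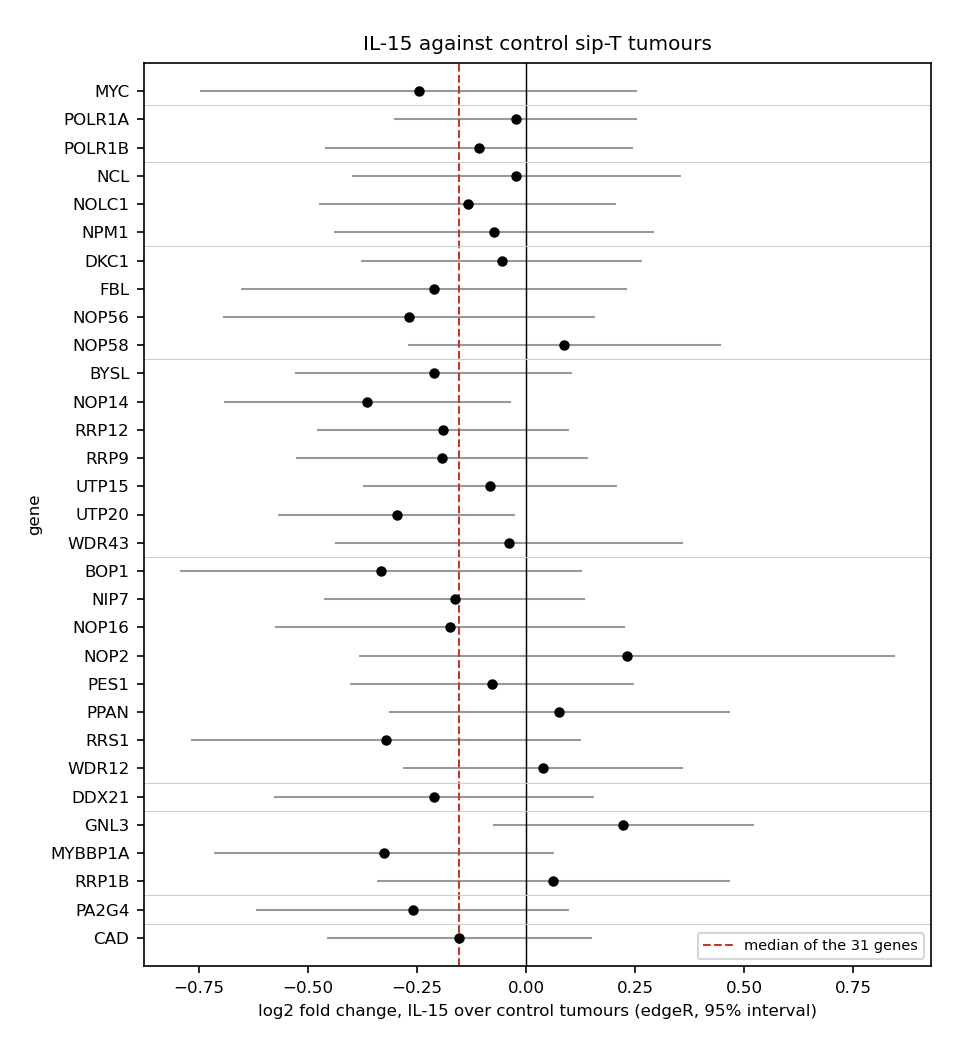
The log2 fold change of each of the 31 genes, IL-15 over control tumours, is plotted on the x axis with its 95% interval from the edgeR fit (n = 5 tumours per group), and genes are grouped by role down the y axis. The dashed line marks the median of -0.15; the intervals of NOP14 and UTP20 lie below 0 and those of the other 29 genes include 0.

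MYC itself was an abundant transcript. It is listed under ENSG00000136997 on chromosome 8. Levels in FPKM are fragments per listed gene length and size of library, as deposited. MYC had 63.2 ± 22.6 FPKM in IL-15 tumours and 75.5 ± 14.7 FPKM in control tumours (SD, n = 5 each). That mean level per length was the fifth highest of the 31 genes and stood at percentile 97.3 of the tested genes. On the CPM scale MYC had 139.7, 246.9, 126.3, 243.9 and 292.8 in IL-15 tumours 1 to 5, against 199.9, 304.8, 196.4, 266.8 and 277.1 in control tumours 1 to 5. IL-15 tumours 1 and 3 lay below every control tumour, and the other 3 IL-15 tumours lay within the control range. The log2 fold change was -0.25 ± 0.23 (SE, edgeR), with a 95% interval from -0.75 to 0.25, an edgeR adjusted p of 0.858 and a two-sided exact permutation p of 0.310 over all 252 assignments. Without IL-15 tumour 3 it was -0.10, without IL-15 tumour 1 it was -0.13, and without IL-15 tumour 5 it was -0.40. Of the other family members, MYCL averaged 4.72 ± 1.27 FPKM in IL-15 and 5.37 ± 1.61 FPKM in control tumours, and MYCN had 2 counts in IL-15 tumour 3, 1 in control tumour 3 and 0 elsewhere. MAX, the obligate partner of MYC on DNA, averaged 8.37 ± 1.077 FPKM in IL-15 and 8.01 ± 0.72 FPKM in control tumours (n = 5 each).

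**Figure D2:**
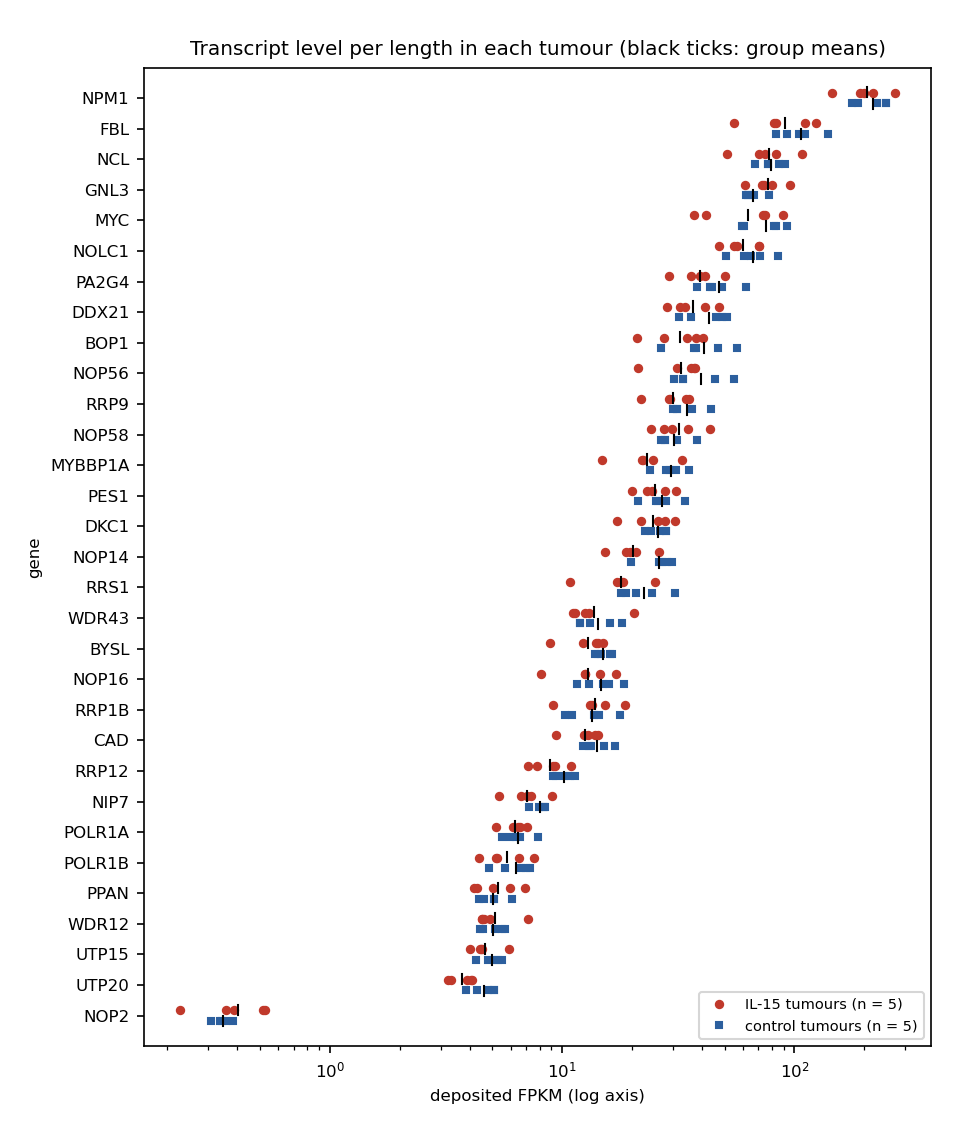
Deposited FPKM (log axis) of the 31 genes in each tumour, ordered by mean, with IL-15 tumours as circles above control tumours as squares and black ticks at the group means (n = 5 each). Levels run from NPM1, at a mean of 211.3 FPKM, down to NOP2 at 0.375 FPKM, and the groups overlap in every gene.

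The abundant nucleolar proteins headed the family. NPM1, nucleophosmin, a chaperone of ribosomal proteins and histones, had 847.7, 1146, 627.4, 815.6 and 911.6 CPM in IL-15 tumours 1 to 5, against 757.2, 1041, 942.6, 782.4 and 1052 CPM in control tumours. Nucleolin, NCL, which binds the nascent precursor, had 579, 826, 404, 542 and 629 CPM in IL-15 tumours, against 525, 652, 577, 577.5 and 696.5 CPM in control tumours. In both genes IL-15 tumour 3 was the lowest and IL-15 tumour 2 the highest of the 10, so the control tumours lay inside the IL-15 range. On the log2 scale the fold changes were -0.07 ± 0.17 for NPM1 and -0.02 ± 0.18 for NCL (edgeR adjusted p = 0.951 and 0.987), and without IL-15 tumour 3 they were 0.03 and 0.10. The FPKM ratio of NPM1 to NCL was nearly constant, from 2.45 to 2.96 over the 10 tumours, at 2.66 ± 0.11 in IL-15 and 2.73 ± 0.21 in control tumours. NOLC1, a scaffold that shuttles snoRNPs, ranged from 212.5 to 307.7 CPM in IL-15 and 224.3 to 368.9 CPM in control tumours, with a log2 fold change of -0.13 ± 0.16, or -0.06 without IL-15 tumour 3.

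Transcripts of RNA polymerase I were scarcer. Its largest subunit, POLR1A, had 92.3, 104.9, 79.7, 96.97 and 97.8 CPM in IL-15 tumours 1 to 5, against 95.7, 117.3, 87.8, 96.6 and 82.3 CPM in control tumours. The next largest, POLR1B, had 37.2, 52.7, 31.6, 36.4 and 45.3 CPM in IL-15 tumours, against 40.3, 48.8, 45.7, 50.2 and 34.0 CPM in control tumours. The groups overlapped along most of their range in both, and the log2 fold changes were -0.02 ± 0.13 for POLR1A and -0.11 ± 0.16 for POLR1B, or 0.04 and -0.02 without IL-15 tumour 3. For this catalytic pair the POLR1A to POLR1B ratio of FPKM was 1.11 ± 0.13 in IL-15 tumours and 1.03 ± 0.12 in control tumours (n = 5 each, two-sided exact permutation p = 0.413). That ratio rests on the listed gene lengths, 13519 bases for POLR1A and 6329 for POLR1B, and does not give the proportion of the subunits. Mean CPM over all tumours was 95.1 for POLR1A and 42.2 for POLR1B. DDX21, an RNA helicase of the nucleolus, ranged from 160.5 to 262.8 CPM in IL-15 and 176.8 to 281.3 CPM in control tumours, with a log2 fold change of -0.21 ± 0.17, or -0.13 without IL-15 tumour 3.

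Core proteins of the snoRNPs lay on both sides of 0. Fibrillarin, FBL, the methyltransferase of the box C/D particles, had 202.2, 297.3, 134.8, 197.5 and 264.0 CPM in IL-15 tumours 1 to 5, against 202.4, 264.3, 247.3, 218.2 and 336.6 CPM in control tumours. Its scaffold partner NOP56 had 225.3, 220, 129.8, 186.3 and 210.8 CPM in IL-15 tumours, against 199.5, 270.5, 194, 178 and 329.5 CPM in control tumours. IL-15 tumour 3 was the lowest and control tumour 5 the highest for both, and the log2 fold changes were -0.21 ± 0.21 for FBL and -0.27 ± 0.20 for NOP56, or -0.07 and -0.14 without IL-15 tumour 3. NOP58, the other scaffold of the same particles, had 127.5, 157.4, 90.0, 109.3 and 99.5 CPM in IL-15 tumours, against 102.4, 113.1, 99.3, 95.55 and 139 CPM in control tumours. Its log2 fold change of 0.09 ± 0.17 was above 0, and it was -0.03 without IL-15 tumour 2 and 0.18 without IL-15 tumour 3. The FPKM ratio of NOP56 to NOP58 was 1.03 ± 0.18 in IL-15 and 1.29 ± 0.16 in control tumours (n = 5 each), with a two-sided exact permutation p of 0.0476 that became 0.222 after adjustment over the 12 ratios compared. Dyskerin, DKC1, the pseudouridine synthase of the box H/ACA particles, had 120.7, 141.9, 82.3, 102.1 and 127.8 CPM in IL-15 tumours, against 107.2, 129.1, 120.6, 110.4 and 130.2 CPM in control tumours. Its groups overlapped, and its log2 fold change was -0.06 ± 0.15, or 0.05 without IL-15 tumour 3.

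Factors of the small subunit processome were below 0 in 7 of 7 genes, with a median of -0.19, as were the 3 nucleolar chaperones and the 2 polymerase subunits with smaller medians (-0.07 for both). NOP14 (ENSG00000087269, chromosome 4, 2937933 to 2963385 on hg38), which is needed for the early cuts that release the small subunit RNA, had 82.2, 101.8, 61.5, 76.7 and 73.3 CPM in IL-15 tumours 1 to 5, against 78.6, 110, 99.9, 103.6 and 116.9 CPM in control tumours. Control tumours 2, 4 and 5 lay above every IL-15 tumour, and control tumours 1 and 3 lay inside the IL-15 range. The log2 fold change was -0.36 ± 0.15, with an unadjusted edgeR p of 0.0333, an adjusted p of 0.758 and a two-sided exact permutation p of 0.0476 (n = 5 each). An antisense gene, NOP14-AS1, covers 93.5% of the NOP14 span and held 4754 counts over all libraries beside 13822 for NOP14. The strand setting of the counting is not given, so reads of the pair cannot be told apart. UTP20 (ENSG00000120800, chromosome 12, 101280109 to 101386616), a large scaffold protein of the processome, had 43.4, 45.2, 36.8, 37.05 and 44.7 CPM in IL-15 tumours, against 48.15, 52.8, 55.1, 55.5 and 42.8 CPM in control tumours. All IL-15 tumours lay below the 4 highest control tumours, and control tumour 5 lay among them. Its log2 fold change was -0.30 ± 0.13 (unadjusted edgeR p = 0.0346, adjusted p = 0.758, two-sided exact permutation p = 0.0317, n = 5 each). Without IL-15 tumour 3 the values were -0.28 for NOP14 and -0.25 for UTP20, neither with an unadjusted p under 0.05. The remaining 5 genes, BYSL, RRP9, RRP12, UTP15 and WDR43, had log2 fold changes from -0.21 to -0.04. Without IL-15 tumour 3 these were -0.10 for BYSL and RRP9, -0.12 for RRP12, -0.07 for UTP15 and -0.0069 for WDR43. Of these, WDR43, a propeller protein of the processome, reached 93.1 CPM in IL-15 tumour 2, against 50.9 to 59.0 CPM in the other 4 IL-15 tumours and 54.5 to 82.2 CPM in control tumours.

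The large subunit factors were mixed, with 5 of 8 below 0. PES1, BOP1 and WDR12 form the PeBoW complex, which is required to process the large subunit RNA. PES1 had 140.8, 121.8, 103.2, 117.3 and 153.7 CPM in IL-15 tumours 1 to 5, against 107.6, 140.6, 128.1, 125.9 and 170.3 CPM in control tumours. BOP1 had 143.2, 112, 88.9, 156.2 and 164.1 CPM in IL-15 tumours, against 156, 231.8, 148.7, 107.5 and 192.9 CPM in control tumours. WDR12 had 46.0, 71.4, 46.9, 46.8 and 48.8 CPM in IL-15 tumours, against 45.2, 56.5, 50.5, 54.8 and 45.9 CPM in control tumours. The 3 subunits thus peaked in different tumours: PES1 in control tumour 5, BOP1 in control tumour 2 and WDR12 in IL-15 tumour 2. Their log2 fold changes were -0.08 ± 0.15, -0.33 ± 0.21 and 0.04 ± 0.15, with edgeR adjusted p from 0.799 to 0.973. Without IL-15 tumour 3 they were -0.0026, -0.21 and 0.08. In FPKM, BOP1 stood 3.84 to 10.3 times as high as WDR12 in single tumours. The ratio was 6.504 ± 2.096 in IL-15 and 8.16 ± 2.26 in control tumours (n = 5 each, two-sided exact permutation p = 0.254). Its size rests on the listed gene lengths, 3716 bases for BOP1 and 9098 for WDR12, and does not give the proportion of the subunits. The ratio of PES1 to BOP1 was 0.802 ± 0.128 in IL-15 and 0.687 ± 0.177 in control tumours (exact permutation p = 0.246).

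Of the other large subunit genes, RRS1, which brings the 5S ribonucleoprotein to the precursor, ranged from 20.8 to 46.8 CPM in IL-15 and 34.0 to 57.6 CPM in control tumours (log2 fold change -0.32 ± 0.21, or -0.18 without IL-15 tumour 3). NOP16 ranged from 26.3 to 53.9 CPM in IL-15 and 37.1 to 58.3 CPM in control tumours, and NIP7 from 28.9 to 47.2 and 38.0 to 43.4 CPM, with log2 fold changes of -0.17 and -0.16, or -0.04 and -0.08 without IL-15 tumour 3. PPAN had a log2 fold change of 0.08 ± 0.18, or 0.15 without IL-15 tumour 3, and NOP2, an RNA methyltransferase, one of 0.23 ± 0.29. NOP2 had few counts, 22 to 40 per library and 291 in all, though above the floor of 3. That was 2.76, 1.17, 2.06, 1.86 and 2.65 CPM in IL-15 tumours and 1.79, 1.98, 1.71, 1.57 and 1.86 CPM in control tumours. Its IL-15 values spread around a narrow control range. Another annotated protein-coding gene, AC006064.6, covers 99.8% of the NOP2 span on the same strand and is listed at 0 counts. PPAN lies entirely under the readthrough gene PPAN-P2RY11, which held 5 counts beside 2222 for PPAN. RRS1 lies to 32.2% and PA2G4 to 51.8% under same-strand protein-coding genes that are also listed at 0 counts. How reads in such overlaps were assigned is not given, so the levels of these 4 genes are uncertain. On the other strand, ARL10 covers all of NOP16 (115 counts beside 6682), and HIGD2A, with 10425 counts, covers 4.5% of it. COG8 covers 32.7% of NIP7 (5798 counts beside 6066), and CARF covers 53.5% of WDR12 (1682 counts beside 7906). Without a stated strand setting, some reads of these genes could belong to the other gene of the pair. Without NOP2 and PPAN the median log2 fold change of the remaining genes was -0.16.

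Among the regulators, MYBBP1A, a repressor of ribosomal RNA transcription that also binds p53 when the nucleolus is disturbed, had 169.9, 150.3, 104.1, 152.8 and 222.2 CPM in IL-15 tumours 1 to 5, against 165.7, 211, 187.7, 196.2 and 241.2 CPM in control tumours. IL-15 tumours 2, 3 and 4 lay below every control tumour. The log2 fold change was -0.33 ± 0.18, with an unadjusted edgeR p of 0.0945 and an adjusted p of 0.776, and it was -0.20 without IL-15 tumour 3. RRP1B had a log2 fold change of 0.06 ± 0.19, or 0.19 without IL-15 tumour 3. PA2G4, also called EBP1, which takes part in growth control and ribosome assembly, ranged from 123.9 to 210.8 CPM in IL-15 and 161 to 259.6 CPM in control tumours (-0.26 ± 0.17, or -0.16 without IL-15 tumour 3). CAD, which catalyses the first steps of pyrimidine synthesis, had 134.5, 129.2, 90.2, 115.6 and 119.2 CPM in IL-15 tumours, against 122.5, 156.5, 112, 121.7 and 141.5 CPM in control tumours. Its groups overlapped and its log2 fold change was -0.15 ± 0.14, or -0.06 without IL-15 tumour 3.

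GNL3 had the opposite sign to most of the family. It encodes nucleostemin, a GTP-binding protein of the nucleolus that is abundant in stem and cancer cells (ENSG00000163938, chromosome 3, 52681156 to 52694492). It had 274.6, 265.6, 359.5, 225.6 and 289.3 CPM in IL-15 tumours 1 to 5, against 228.5, 231, 240.1, 279.9 and 232.7 CPM in control tumours. IL-15 tumour 3, the lowest library for 26 of the 31 genes, was the highest for GNL3. The log2 fold change was 0.22 ± 0.14, with an edgeR adjusted p of 0.790 and a two-sided exact permutation p of 0.135 (n = 5 each), and it was 0.13 without IL-15 tumour 3. GNL3 also hosts small nucleolar RNA (snoRNA) genes in its introns: 6 lie inside it on its strand, and 4 of them had counts. Together these held 58, 75, 190, 57 and 67 counts in IL-15 tumours 1 to 5, against 68, 50, 48, 70 and 57 counts in control tumours. In scaled units that was 11.8 CPM in IL-15 tumour 3 and 3.28 to 4.91 CPM in the other 9 tumours. NCL, another host, had 24 snoRNA counts in IL-15 tumour 3 and 7 to 16 in the others, while its own CPM was lowest there. In all, 7 of the 31 genes host 25 annotated snoRNA genes on the same strand, and 14 of these had any count. The 5 inside NOP56 and the 2 inside DKC1 are listed at 0, and PPAN, WDR43 and NOP58 held 3, 35 and 40 snoRNA counts over all tumours. PBRM1 overlaps 35.7% of GNL3 on the other strand, with 17253 counts beside 40240 for GNL3, so without a stated strand setting some GNL3 reads could belong to it. Neighbours on that strand were also highest in IL-15 tumour 3 in unscaled counts. PBRM1 had 2416 there and 1082 to 2379 in the other tumours, and GLT8D1, which touches the end of GNL3, had 1389 and 679 to 966.

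**Figure D3:**
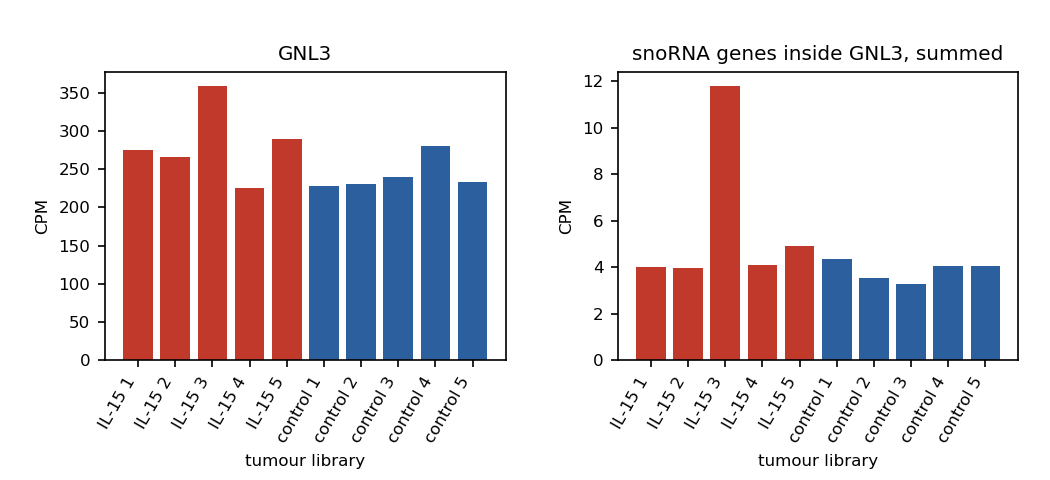
CPM of GNL3 (left) and summed CPM of the snoRNA genes inside its introns (right) in each tumour library, with IL-15 tumours left of control tumours and each bar a single tumour. IL-15 tumour 3 is the highest in both, at 359.5 CPM for GNL3 and 11.8 CPM for the snoRNA genes.

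Across the tumours, most of the family varied together. IL-15 tumour 3 was the lowest of the 10 libraries in 26 genes, where it was the lowest for 16.2% of all tested genes, and it lay above a gene's mean in 2 of 31. Control tumour 2 lay above the mean in 29 of 31 genes. IL-15 tumour 2 had the highest value in 9 of 31 genes (10.6% of all tested genes), control tumour 5 in 9 (16.9%) and control tumour 2 in 8 (9.40%). Control tumour 1 and IL-15 tumour 4 lay below the mean in 25 and 28 genes. Summed over the 31 genes, the level was 4501, 5499, 3466, 4296 and 5052 CPM in IL-15 tumours 1 to 5, against 4226, 5564, 4759, 4690 and 5514 CPM in control tumours. The IL-15 tumours with the 3 highest T cell marker sums, 1, 3 and 4, had the 3 lowest of the 5 IL-15 sums. The control tumours did not show this order. Control tumour 3 had their highest T cell marker sum (20.3 CPM), and its sum over the 31 genes lay above those of control tumours 1 and 4. The part of leukocyte content in these sums was not tested. The within-group SD of log2 CPM had a median of 0.26 over the 31 genes, beside 0.34 over all tested genes. Over the 465 pairs of members, Pearson's r across the 10 tumours had a median of 0.52 and was above 0 in 397. These pairs share the libraries and their scaling, and the figures are a description. GNL3 had a median r of -0.50 with the other 30, and NOP2 one of -0.23.

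**Figure D4:**
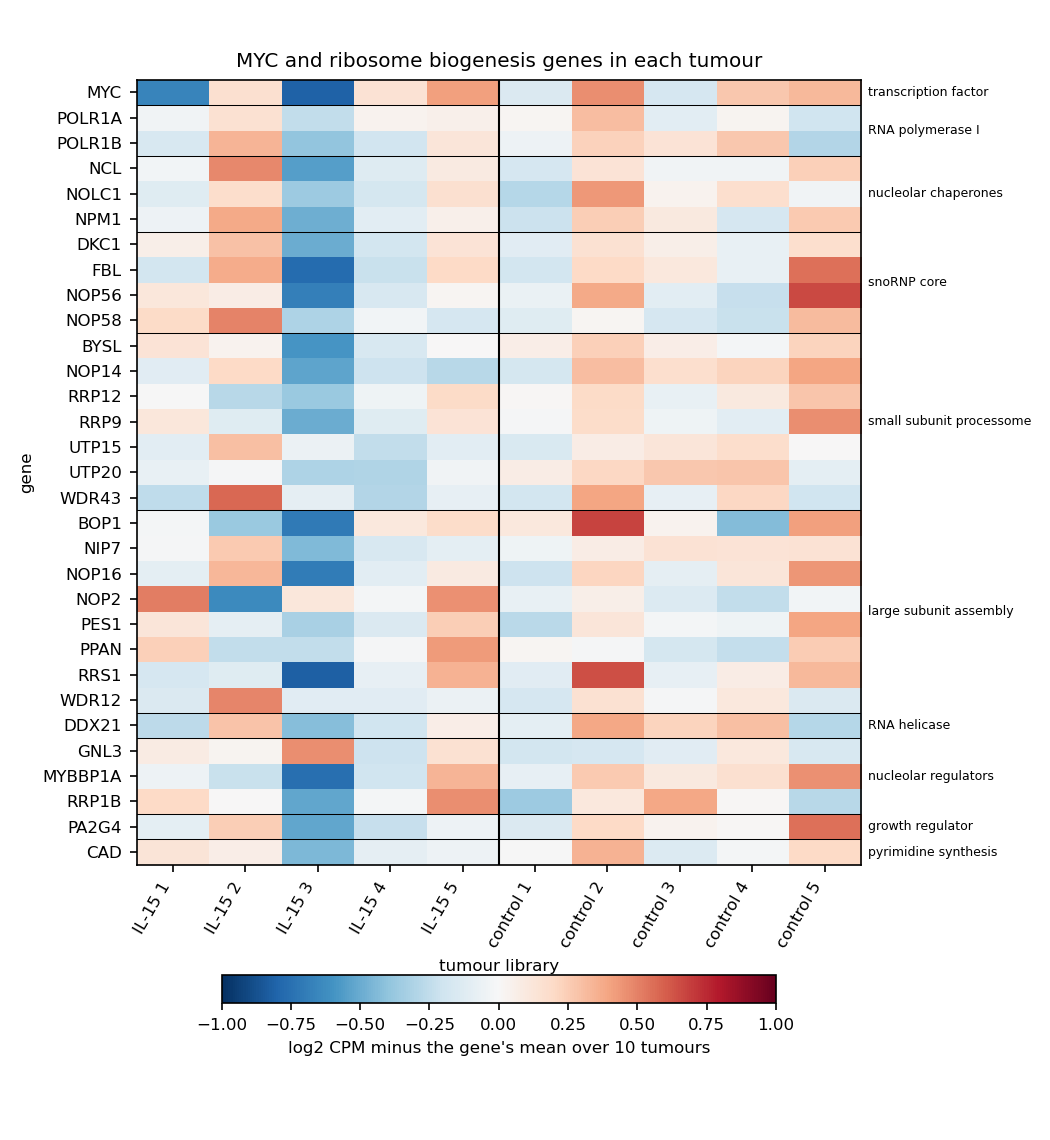
Each cell shows a gene's log2 CPM in a tumour minus that gene's mean over all 10 tumours, from blue (below) to red (above), with genes by role down the y axis and IL-15 tumours left of control tumours on the x axis. The column of IL-15 tumour 3 is blue in 29 of 31 genes, with GNL3 and NOP2 as the exceptions, and that of control tumour 2 is red in 29.

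The question whether these genes followed MYC from tumour to tumour was addressed by correlating log2 CPM with that of MYC over the 10 tumours. Pearson's r was above 0 in 28 of the other 30 genes, with a median of 0.57, where 47.8% of 16912 tested genes were above 0 with a median of -0.03. In 9 genes with r above 0 the unadjusted permutation p was under 0.05, beside 5.62% of all genes. After adjustment over all genes 0 members and 0 genes in the table passed 0.05. With each group centred on its own mean the median r was 0.52. Without IL-15 tumours 3 and 1, the 2 farthest from the median of MYC, the median was 0.38 and 28 genes were above 0, of which 26 were above 0 over all 10 tumours. UTP20 and NIP7 became negative (-0.13 and -0.02), and GNL3 and NOP2 became positive. Without IL-15 tumour 3 alone, 25 were. Only 4 of 15 T cell markers and 4 of 12 NK and cytotoxic markers were abundant enough to be tested. GZMA had 0.74 to 4.00 CPM in IL-15 tumours and 0 to 0.82 CPM in control tumours. The tested T cell and NK and cytotoxic markers all had an r below 0 with MYC, with medians of -0.56 and -0.74. Some passed the filter mainly through IL-15 tumours, as GZMA (158 counts there, 14 in control tumours) and PRF1 (187 and 38) did. Both sums were highest in IL-15 tumours 1 and 3, where MYC was lowest, and no r without that pair is given. These r are therefore a description only. The median r was -0.17 over 3 tested myeloid markers, 0.17 for 1 B cell marker and 0.11 over 4 stroma and endothelium markers. The part of leukocyte content in the correlations was not tested.

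RRS1 followed MYC most closely of the family (Pearson's r = 0.86, permutation p = 9e-05, adjusted 0.406; Spearman's rho = 0.92, permutation p = 0.00055, adjusted 0.698; n = 10). It was lowest in IL-15 tumour 3 and highest in control tumour 2, as MYC was, and without the 2 farthest tumours r was 0.82. RRS1 lies on chromosome 8, as do MYC and BOP1 (r = 0.57), and the part of a shared copy number was not tested. NOP16 had r = 0.80 (permutation p = 0.0033, adjusted 0.406) and rho = 0.75 (p = 0.0178, adjusted 0.698), with 0.67 without the 2 farthest tumours. FBL, MYBBP1A and NOLC1 came next, with r of 0.76, 0.74 and 0.74 and, without those tumours, 0.44, 0.57 and 0.67. The weakest positive values were those of NOP58 (0.22), PPAN (0.23) and UTP15 (0.26). GNL3 had r = -0.53 (permutation p = 0.117, adjusted 0.566) and rho = -0.19 (p = 0.607, adjusted 0.903), and its r became 0.34 without the 2 farthest tumours, so its negative value rested on them. NOP2 likewise had -0.28 over all tumours and 0.35 without them.

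**Figure D5:**
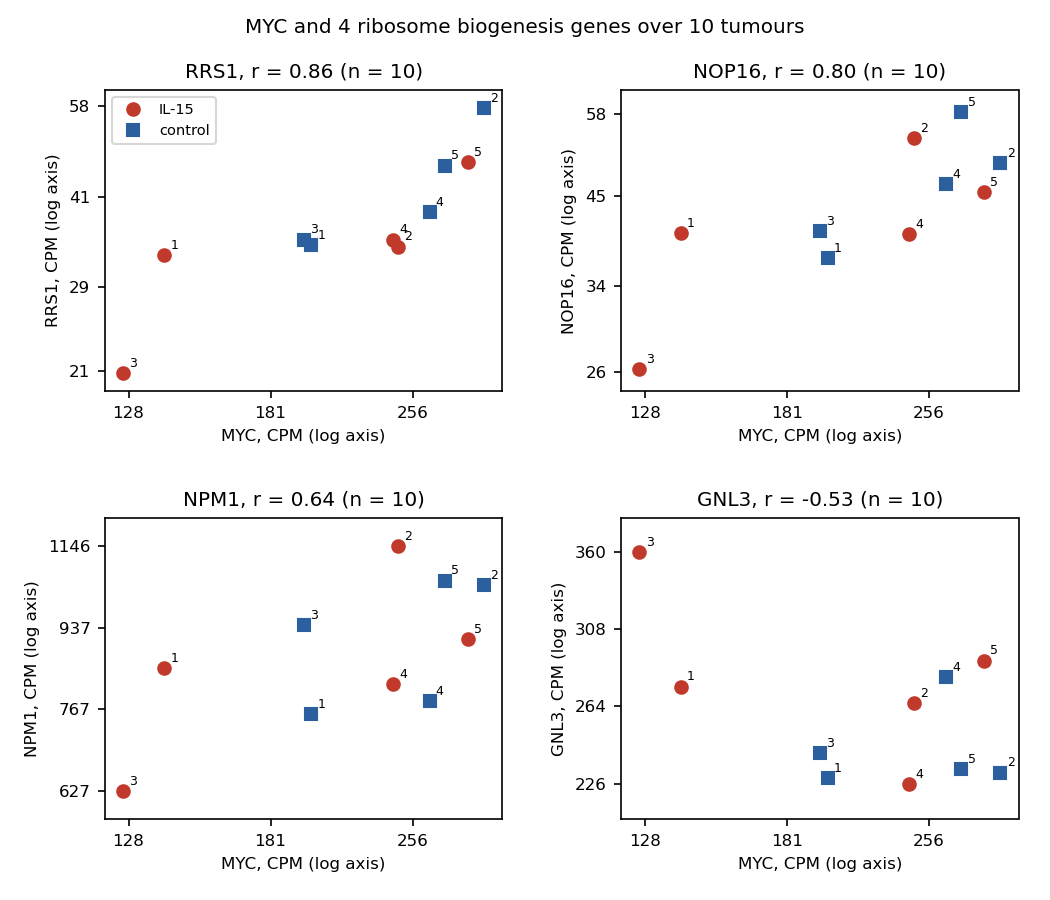
CPM of 4 genes against CPM of MYC in the 10 tumours (both axes log), IL-15 tumours as circles and control tumours as squares, numbered by replicate. RRS1 (r = 0.86) and NOP16 (r = 0.80) are higher where MYC is higher, NPM1 spreads more widely at r = 0.64, and the negative r of GNL3 (-0.53) rests on IL-15 tumours 3 and 1.

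Outside the family, the 5 protein-coding genes with the highest r were ATOX1 (0.92), NUDT3 (0.90), RPL8 (0.89), RPS21 (0.89) and GNG10 (0.89). Each had an adjusted permutation p of 0.406 over all genes (n = 10), and r between 0.51 and 0.71 without the 2 farthest tumours. GNG10 had only 6 to 43 counts per library and NUDT3 41 to 209, so counting error weighs more on their r. RPL8 and RPS21 encode ribosomal proteins. RPL8 had 1471, 1995, 1102, 1788 and 2148 CPM in IL-15 tumours 1 to 5, against 1864, 2483, 2038, 1879 and 2454 CPM in control tumours.

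Other genes of the same pathways were read from 9 lists with 211 tested genes. Of these, 143 had a log2 fold change below 0, where 51.0% of all tested genes did, and without IL-15 tumour 3 some changed sign in either direction. An unadjusted edgeR p under 0.05 came with a lower mean in 4 (1.90%, beside 3.43% of all tested genes) and a higher mean in 1 (0.474%, beside 3.03%). Both shares at that p lie below those of the whole table, and no gene of the lists passed the adjusted threshold. Without IL-15 tumour 3 none of these 5 kept an unadjusted p under 0.05. The values of named genes below describe their lists. In the MYC network, 13 of 18 genes were below 0 (median -0.09). MXD4, a partner of MAX that opposes MYC, had 220, 266.9, 182.6, 277.6 and 195 CPM in IL-15 tumours 1 to 5, against 281.1, 311.1, 257.1, 294 and 298.7 CPM in control tumours. IL-15 tumours 2 and 4 reached the control range and the other 3 did not. MXD4 had a log2 fold change of -0.34 ± 0.14, with an unadjusted p of 0.0336 and an adjusted p of 0.758 by edgeR's quasi-likelihood test across all genes. MLXIP, which pairs with another member of the MAX network, had -0.24 ± 0.14.

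The RNA polymerase I machinery had 11 of 19 genes below 0 (median -0.02), led by POLR2L, a small subunit shared by all 3 nuclear polymerases. POLR2L had 70.3, 89.25, 53.5, 94.75 and 78.0 CPM in IL-15 tumours, against 104.7, 115.8, 121.2, 69.5 and 131.5 CPM in control tumours. Control tumour 4 lay inside the IL-15 range and the other 4 above it. For POLR2L the log2 fold change was -0.49 ± 0.19, and edgeR gave an unadjusted p of 0.0217 and an adjusted p of 0.758. TAF1D, of the promoter selectivity factor, had -0.43 ± 0.21.

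The list drawn up for small subunit processome and 40S assembly genes outside the family was below 0 in 34 of 47 (median -0.10). A gene's place in this list or in the 60S list does not establish which subunit it acts on. MPHOSPH6, an exosome-associated protein, ranged from 23.9 to 71.8 CPM in IL-15 and 37.3 to 124.3 CPM in control tumours with a log2 fold change of -0.78 ± 0.35. RRP36 had -0.30 ± 0.15. The 60S assembly list was below 0 in 32 of 46 (median -0.05), with the helicase DDX10 at -0.46 ± 0.20 and the helicase DDX55 at 0.35 ± 0.16, or 0.22 without IL-15 tumour 3. DDX55, like GNL3, was highest in IL-15 tumour 3, with 103.6 CPM, against 58.5 to 83.6 CPM in the other IL-15 tumours and 55.1 to 66.9 CPM in control tumours. Partners and assembly factors of the snoRNPs were below 0 in 12 of 15 (median -0.10), with NAF1, which assembles H/ACA particles, at -0.30 ± 0.17 and NOP10, a core H/ACA protein, at -0.19 ± 0.11.

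The RNA exosome, which trims the precursor, was below 0 in 6 of 13 genes (median 0.01), with EXOSC4 at -0.33 ± 0.19 and EXOSC5 at -0.25 ± 0.21, or -0.21 and -0.09 without IL-15 tumour 3. Nucleotide synthesis genes were below 0 in 13 of 22 (median -0.09), with the purine enzyme ADSL at 0.37 ± 0.20 and CTPS1, which makes CTP, at -0.28 ± 0.16. Translation factors were below 0 in 16 of 23 (median -0.05), with EIF2S1 at 0.25 ± 0.14 and EIF4EBP1, an inhibitor of cap-dependent initiation, at -0.37 ± 0.22, or -0.21 without IL-15 tumour 3. In the 5S ribonucleoprotein and p53 checkpoint list 6 of 8 genes were below 0 (median -0.12). MDM4, an inhibitor of p53, had 0.28 ± 0.15, or 0.16 without IL-15 tumour 3, and CDKN2A, whose ARF product blocks MDM2, had -0.86 ± 0.48. CDKN2A spread widely, from 13.4 to 81.9 CPM in IL-15 and 37.8 to 117.8 CPM in control tumours, and edgeR gave it an adjusted p of 0.776.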

How the data were processed

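TRIzol RNA of 10 LNCaP tumours was read on Illumina sequencers, per the labels' protocols. Tools listed in the submitters' processing notes, with no roles, are fastp, HISAT2 (2.0.5), featureCounts (1.5.0-p3), GATK (4.1.1.0) and DESeq2 (1.20.0), and the build is hg38. The strand setting and the handling of mouse reads are not given. The labels give mouse as organism, whereas the deposited table holds human genes. The deposited values are raw counts per gene and FPKM, which the authors computed per gene and library. FPKM was used for levels between genes and CPM within a gene. Since FPKM follows the listed gene lengths, levels and ratios between genes depend on the annotation. A deposited table of group means was not used.

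Groups came from the labels. Genes were kept with filterByExpr (minimum count 10) and scaled by TMM, and the quasi-likelihood test of edgeR 4.0.16 (R 4.3.3, robust) was adjusted over 16913 genes at 0.05. All library pairs (45) differed by more than sampling noise, as a ratio of chi-square to degrees of freedom between 17.9 and 78.5 showed. Exact permutation tests used all 252 assignments of 5 against 5 libraries. Correlations used log2 CPM (prior count 2) and 100000 permutations. Alternatives covered scaling, filter, DESeq2 1.42.0, limma 3.58.1 on counts and on log2(FPKM + 0.1), a replicate block, and leaving out each library. The fit and the correlations were tested on simulated data. The genes and lists were chosen with earlier results of these data known. Values in every library are given for MYC, the 3 genes with the smallest p per direction, the 4 most abundant by FPKM and core subunits, and the 2 genes with the smallest p per pathway list are named. The library values of WDR43 and the ratios of 3 further pairs were chosen after their values were seen.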

Additional observations from a re-analysis of the deposited data

Results flagged for a closer look

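Each of the 31 genes was examined in both groups for a tumour set apart from the other 4 by more than Dixon's 95% critical value (0.71 of the group's range). Of 62 groups of 5 tumours 3 held such a value, and chance gives about 1 in 20. WDR43 had 93.1 CPM in IL-15 tumour 2, against 50.9 to 59.0 CPM in the other IL-15 tumours. WDR12 had 71.4 CPM in that same tumour, against 46.0 to 48.8 CPM in the other IL-15 tumours. GNL3 had 279.9 CPM in control tumour 4, against 228.5 to 240.1 CPM in the other control tumours.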

How the results depend on the processing

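MYC kept its negative log2 fold change in every alternative run, as did the median of the 31 genes, and no member passed an adjusted p of 0.05 in any. Over left-out libraries, the median ran from -0.20 to -0.06, MYC from -0.40 to -0.10, genes below 0 from 21 to 27, genes correlated positively with MYC from 25 to 29 and genes lower at an unadjusted p under 0.05 from 0 to 3, with 0 without IL-15 replicate 3, IL-15 replicate 4 or control replicate 2. That last count was 1 with upper quartile scaling or no low-count filter and 0 with library size alone. Genes of the whole table past an adjusted p of 0.05 numbered 1 without the filter and 15 with DESeq2, and the cause was not tested. Small values crossed 0. With upper quartile scaling NCL was 0.0149 and POLR1A 0.0171. With library size alone NPM1 was 0.0045, NCL 0.0516, DKC1 0.0212, PES1 0.0084 and POLR1A 0.049. Over left-out libraries NOP58 ran from -0.0333 to 0.19, WDR12 from -0.0925 to 0.0832, NPM1 from -0.18 to 0.0335, NCL from -0.16 to 0.0981, DKC1 from -0.13 to 0.0520, POLR1A from -0.0667 to 0.0558 and PES1 from -0.16 to 0.0290. With the replicate block, MYC was -0.30 (edgeR adjusted p = 0.803), the median was -0.16, 25 genes were below 0 and 2 had an unadjusted p under 0.05. Libraries of equal replicate number had correlations of deviations from -0.22 to 0.26, and 2 of 10 libraries were closest to their own number. In MYC, however, replicates 1 and 3 were the lowest of both groups. Its unadjusted edgeR p was 0.308 without the block and 0.0699 with it. Whether equal numbers share an animal or donor is not stated. The block changed no call at an adjusted p of 0.05. At an unadjusted p under 0.05 it kept NOP14, lost UTP20 and gained MYBBP1A. The promoter alternative was not run, since no human sequence was at hand. Genes with few counts, such as NOP2 with 291 in all, are limited by counting error. Whether the low count of NOP2 reflects a scarce transcript or its overlap with AC006064.6 was not tested.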
